A study of Rattus norvegicus with 6 samples.

Results

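The genes of the proteasome were examined in NRK-52E cells, an established line of rat kidney epithelial cells, after exposure to streptozotocin (STZ), a glucose-linked nitrosourea that alkylates DNA. Members were all rows of the count table whose symbol begins with Psm, a letter from a to g and a number, apart from the inducible subunits Psmb8, Psmb9 and Psmb10. This rule found 45 of 18930 rows and used no measured value. Of these, 42 belong to the core, the cap, the activators or the assembly chaperones, and 3 match by name only (Psmc3ip, Psme3ip1 and the pseudogene Psme1-ps1). The cells were wild type, and 3 samples labelled Control were compared with 3 STZ samples that had received STZ at 10 mM for 24 h. The study describes the Control cells as given vehicle, and names dimethyl sulfoxide as the solvent of STZ. All samples come from a single line, and no label tells if replicates were grown as separate cultures. The p-values therefore measure the spread between these samples, which may be technical.

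The proteasome is the barrel-shaped protease that degrades proteins tagged with ubiquitin in the cytosol and nucleus. Its 20S core consists of outer rings of alpha subunits, which gate the entry, around inner rings of beta subunits, of which Psmb5, Psmb6 and Psmb7 cut peptide bonds. The 19S cap binds ubiquitin, removes it and unfolds the substrate with a ring of ATPases, whereas the activators encoded by Psme genes open the core without ubiquitin. The subunits of the core and cap are needed in fixed proportion, and their genes share a transcription factor, Nfe2l1, that raises them together when proteolysis is impaired.

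The deposited totals lay between 10430924 and 15191349 reads per sample, and the scaling factors of edgeR's TMM method between 0.988 and 1.02. Expression is given as CPM, the reads of a gene divided by the scaled size of its library and set to a common total. Because no transcript lengths were used, levels are compared between samples and not between genes. Of the rows, 11870 had enough reads to be tested by edgeR's quasi-likelihood test. Their median log2 fold change (STZ against Control) was -0.0055. Of the epithelial genes, the keratin gene Krt8 had 11691 to 24040 reads per sample, but Krt18 had at most 3 and Cdh1 16 to 35. Of the proximal tubule genes, Lrp2, Slc34a1 and Slc5a2 had at most 4, 2 and 7 reads and Cubn 4 to 10. Aqp1 had 66 to 167 and Ggt1 451 to 1220 reads per sample. The epithelial and tubular identity of the line thus rested on few of the listed markers, mainly Krt8, Ggt1 and Aqp1. Endothelial and leukocyte genes had few reads, at most 2 for Pecam1 and for Cdh5, 9 for Kdr and 1 for Ptprc, while the macrophage gene Cd68 had 7 to 29 (log2 fold change of 0.40, adjusted p = 0.279). Other markers moved with the groups. Of the list of 10 epithelial and proximal tubule genes, Krt8 and Ggt1 were higher (log2 fold changes of 0.48 and 0.73). Cdh1 and Aqp1 were lower (-0.69 and -1.25). Of 8 endothelial, blood and fibroblast genes, Acta2, Col1a1 and Pdgfrb had 519 to 732, 307 to 414 and 184 to 256 reads per sample. All of these were lower in STZ (-0.21, -0.27 and -0.33). The part of the markers in the results was not tested. In bulk RNA, fewer cells of a type and less RNA per cell cannot be told apart.

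Most proteasome genes differed little between STZ and Control. Of 43 rows tested, 10 had higher and 5 had lower expression after STZ at an adjusted p-value under 0.05, and 28 did not pass. This split depended on the scaling of the libraries, since 6 were higher and 9 lower with library size only, and 6 higher and 7 lower with upper-quartile scaling. Among all genes tested, 25.9% were higher and 25.1% lower by this rule, 50.9% in either direction, against 34.9% of the proteasome rows in either direction. No member passed the additional threshold of an absolute log2 fold change over 1, which 3.37% of all genes did. The median log2 fold change of the members was -0.005, and the values ran from -0.33 for Psmg4 to 0.29 for Psme1. An absolute log2 fold change under 0.2 was seen in 37 of the 43 rows (86%), against 52.2% of all genes. For 32 rows the 95% interval lay wholly within a 1.2-fold difference in either direction, which held for 32.4% of all genes. This comparison depends in part on depth, because members had smaller standard errors than all genes (median 0.041 against 0.068).

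**Figure D1:**
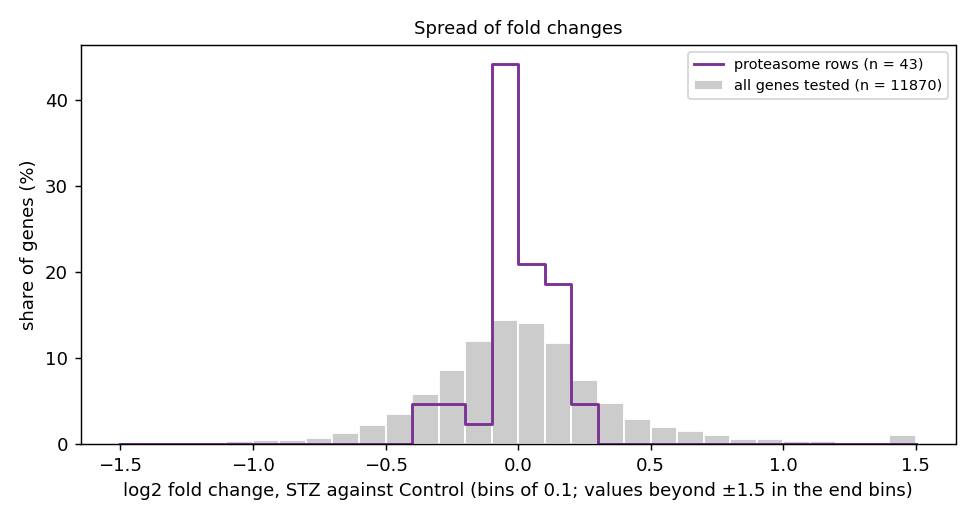
Distribution of log2 fold changes (x axis, STZ against Control, in bins of 0.1) as a share of genes (y axis, percent) for all 11870 genes tested (grey bars) and for the 43 proteasome rows (line). The proteasome rows lie between -0.33 and 0.29, and 37 of them lie within 0.2 of 0.

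This narrow range was measured with good depth. The 43 tested members had 151 to 11922 reads per sample, and the median standard error of their log2 fold changes was 0.041, against 0.068 over all genes. Replicates were close, with a median coefficient of variation of 2.91% in Control and 2.47% in STZ for the members. Among genes with at least 100 CPM in Control, a limit chosen after the values were seen, 12 of 36 members were called in either direction, against 66.9% of the 2508 genes at that level. An absolute log2 fold change under 0.2 was seen at that level in 33 of the 36 members (91.7%), against 61.9% of the genes. All STZ samples lay above all Control samples in 13 of the 43 members and below them in 7, beside 28.6% and 27.7% of all genes. Summed over the 41 tested genes of the 7 classes, proteasome expression was 8275, 8490 and 8504 CPM in the Control samples and 8394, 8293 and 8497 CPM in the STZ samples, and these ranges overlapped. This overlap depended on the scaling, because with library size only the sums were 8415, 8563 and 8562 CPM in Control and 8295, 8188 and 8383 CPM in STZ, with all STZ samples below Control.

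**Figure D2:**
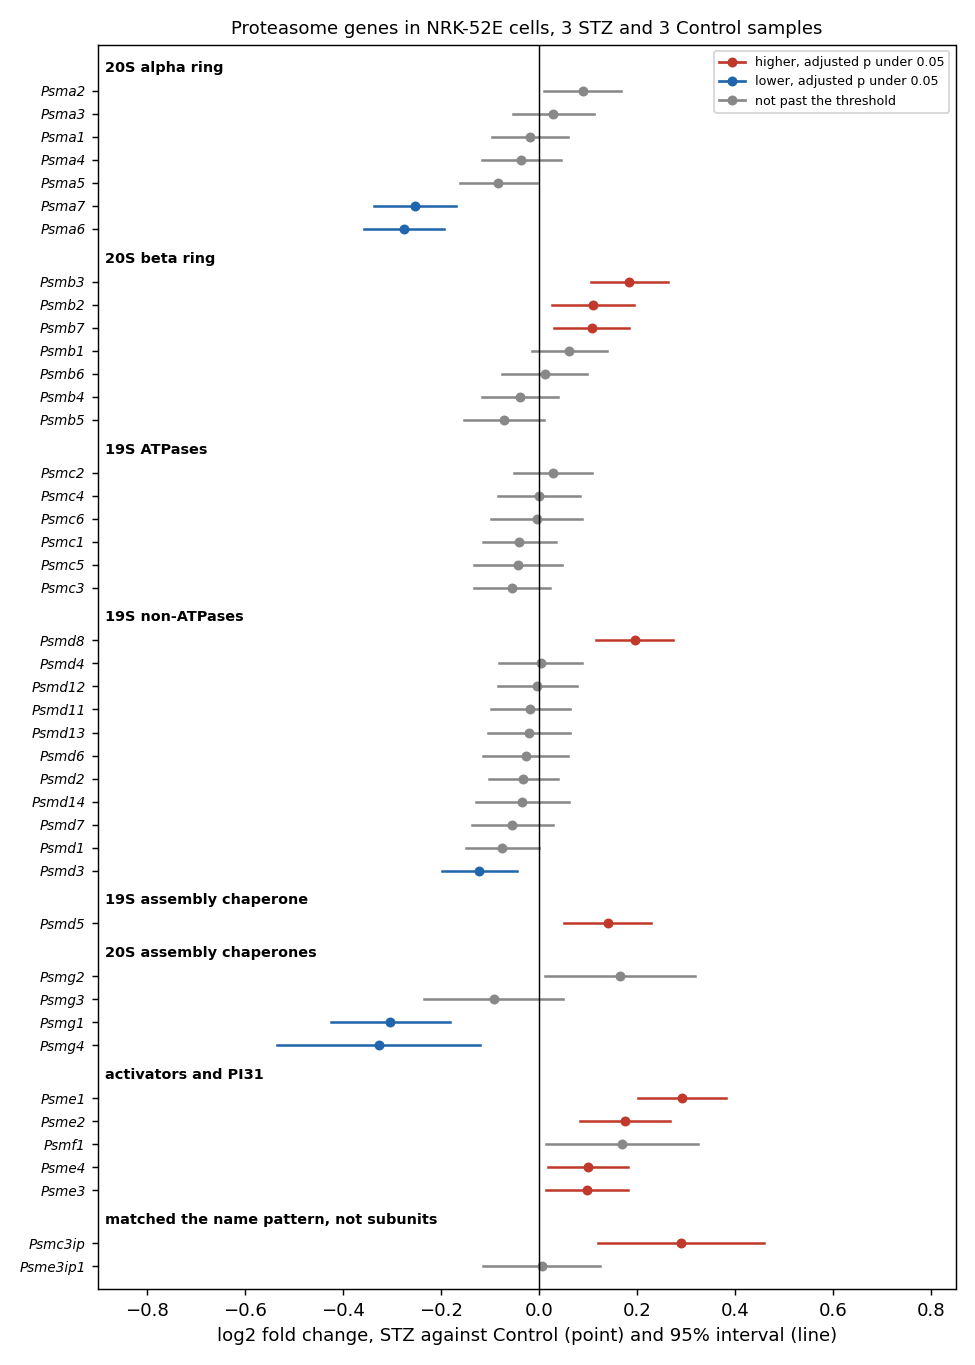
Log2 fold change (x axis, STZ against Control) of each tested proteasome gene, by class, with its 95% interval as a line and its call by edgeR's quasi-likelihood test as the color. The 6 ATPases of the cap lie around 0, Psma6 and Psma7 lie apart from the other genes of the alpha ring, and the 4 Psme activators are all on the higher side.

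Within the alpha ring of the core, Psma6 and Psma7 fell while the other genes did not pass the test. Psma6 was at 196, 204 and 201 CPM in Control and at 165, 164 and 168 CPM in STZ. All STZ samples thus lay below all Control samples, with means of 166 ± 2.38 and 201 ± 3.99 CPM (SD, n = 3 each). Its log2 fold change was -0.28 (95% interval -0.36 to -0.19, adjusted p = 2.31e-07 from edgeR), a percent difference of -17.4. Psma7 was at 217, 239 and 230 CPM in Control and at 189, 190 and 196 CPM in STZ, again without overlap. For this gene the log2 fold change was -0.25 (95% interval -0.34 to -0.17, adjusted p = 1.72e-06). Among all genes tested, these changes stood at the 17.6th and 19.4th percentile of log2 fold change, so falls of this size were common.

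The other alpha-ring genes bracketed 0. Psma2 had the highest value of the ring, with 230, 229 and 225 CPM in Control and 245, 233 and 248 CPM in STZ. Its STZ samples were all above Control, but the log2 fold change of 0.09 (95% interval 0.01 to 0.17) did not pass after adjustment (adjusted p = 0.0565). It passed with a minimum of 10 counts in each sample (adjusted p = 0.0458), with the replicate block (0.0497) and without STZ replicate 2 (0.0275). Psma3, Psma1, Psma4 and Psma5 had log2 fold changes of 0.03, -0.02, -0.04 and -0.08, and Psma5 was called lower with upper-quartile scaling (adjusted p = 0.0274) and with library size only (adjusted p = 0.0106). Psma8, a form of the alpha ring made in the testis, had at most 1 read in a sample and was not tested.

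Shares within the ring, which do not depend on how libraries are scaled, separated the groups in the same directions for Psma6, Psma7 and Psma2. They were computed for these genes only, whose groups were already apart in CPM, and from the same reads, so they are no separate support. Shares of a ring are not independent, because a fall in some genes lifts the shares of the others. With Psma6 and Psma7 lower, the higher share of Psma2 is thus no separate measure of Psma2. Psma6 contributed 12.5%, 12.3% and 12.6% of the reads of the 7 alpha-ring genes in the Control samples and 10.8%, 10.8% and 10.8% in the STZ samples. Psma7 contributed 14.2% ± 0.345 in Control and 12.5% ± 0.11 in STZ (SD, n = 3 each), and Psma2 14.1% ± 0.41 and 15.8% ± 0.314. With 3 samples per group, an exact two-sided permutation test of such a share cannot give a p below 0.1, so none is given. The RefSeq annotation of GRCr8 names 5 further loci after Psma6 and 3 after Psma7 (pseudogenes or like copies). Reads shared with such copies are not counted when only unique alignments are kept. This limit holds for 19 members with such copies, among them also the called genes Psmb3, Psmb7, Psmd8, Psmg4, Psme1, Psme2 and Psme3.

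In the beta ring 3 genes were called higher and none lower, but with library size only Psmb3 alone was called higher and Psmb5 was called lower. Psmb3, a structural subunit, was at 223, 233 and 230 CPM in Control and at 265, 264 and 251 CPM in STZ, so the groups did not overlap. It had a log2 fold change of 0.18 (95% interval 0.10 to 0.26, adjusted p = 1.25e-04) and took 14.6% ± 0.269 of the ring's reads in Control and 16% ± 0.406 in STZ. RefSeq names 10 further loci after Psmb3, the most of any member. Psmb2, another structural subunit, had a log2 fold change of 0.11 (adjusted p = 0.0247). This call was lost with upper-quartile scaling (adjusted p = 0.0665), with library size only (adjusted p = 0.119), at the stricter threshold of 0.01 and without Control replicate 1, Control replicate 3, STZ replicate 1 or STZ replicate 2 (adjusted p = 0.0862, 0.0983, 0.0766 and 0.0564). Psmb1 and Psmb4 had values of 0.06 and -0.04 and did not pass.

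The 3 catalytic subunits differed in their calls. Psmb7, which carries the trypsin-like activity, was at 247, 247 and 247 CPM in Control and at 266, 261 and 271 CPM in STZ. This was a small rise, with a log2 fold change of 0.11 (95% interval 0.03 to 0.18, adjusted p = 0.0171), which was lost with upper-quartile scaling (adjusted p = 0.0512), with library size only (adjusted p = 0.101), at the stricter threshold of 0.01 and without STZ replicate 3 (adjusted p = 0.0686). Psmb6, with the caspase-like activity, was at 153, 155 and 149 CPM in Control and at 149, 150 and 161 CPM in STZ. Its groups overlapped, and the log2 fold change was 0.01 (95% interval -0.08 to 0.10, adjusted p = 0.854). Psmb5, with the chymotrypsin-like activity, was at 186, 192 and 195 CPM in Control and at 184, 182 and 180 CPM in STZ. All its STZ samples were below Control, yet the log2 fold change of -0.07 (95% interval -0.15 to 0.01) did not pass (adjusted p = 0.142). With library size only it was called lower (log2 fold change -0.10, adjusted p = 0.0263). Its share of the ring's reads, which needs no scaling, was 12.2% ± 0.368 in Control and 11.2% ± 0.0541 in STZ (SD, n = 3 each), without overlap. A share also falls where other genes of the ring rise, as Psmb3 did, so it is no separate measure of Psmb5.

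**Figure D3:**
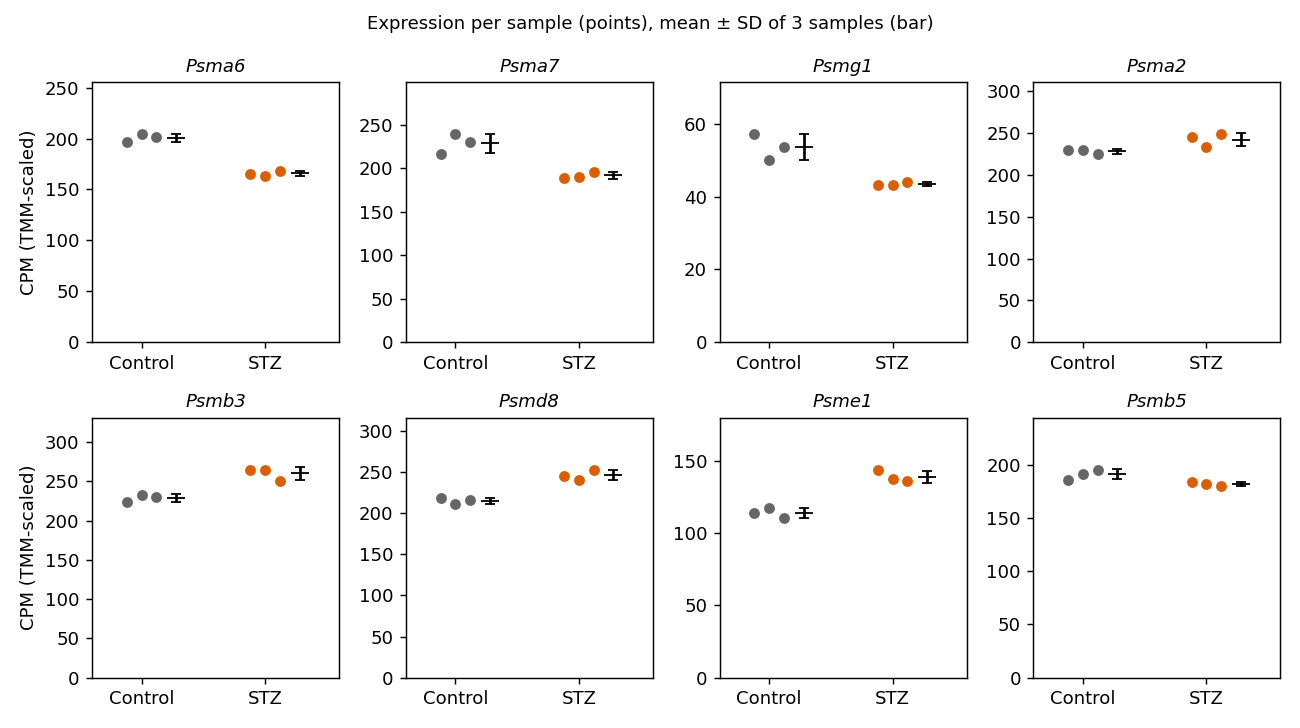
Expression in CPM (y axes, from 0) in each Control and STZ sample (points) with the mean ± SD of 3 samples (bar) for 8 proteasome genes. The groups are separate for Psma6, Psma7 and Psmg1 (lower in STZ) and for Psmb3, Psmd8 and Psme1 (higher in STZ), whereas Psma2 and Psmb5 show small shifts that did not pass the test.

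To place the called and uncalled subunits beside their regulatory sequence, promoters were read from RefSeq (GRCr8), which held 40 of the 45 members. The Nfe2l1 factor binds antioxidant response elements, whose core was searched as TGACNNNGC on both strands between 250 bases before and 50 bases after the annotated start. It was found in 7 of 40 member promoters (17.5%), namely Psma3, Psmb2, Psmb5, Psmb6, Psmd1, Psmd3 and Psme4, against 15% of the 8698 promoters of tested genes. The CCAAT box was found in 19 of 40 (47.5%) against 38.5%, and the core of the nuclear respiratory factor 1 site, GCGCATGC, in 1 of 40 (2.5%, Psma2) against 5.52%. The CCAAT box of Psmb2 overlaps its TGACNNNGC match by 1 base, and Psma2 holds overlapping GCGCATGC matches. These are matches of letters and not sites of binding, and an absent match says only that the letters are not in this window. The 250 bases before the start are shown for the catalytic subunits Psmb5 and Psmb6, which hold the core (capitals) and did not pass the test, and for Psma6 and Psme1, the core-particle gene with the largest fall and the member with the largest rise, which do not hold it.
Psmb5, chr15:32047380-32047629, minus strand: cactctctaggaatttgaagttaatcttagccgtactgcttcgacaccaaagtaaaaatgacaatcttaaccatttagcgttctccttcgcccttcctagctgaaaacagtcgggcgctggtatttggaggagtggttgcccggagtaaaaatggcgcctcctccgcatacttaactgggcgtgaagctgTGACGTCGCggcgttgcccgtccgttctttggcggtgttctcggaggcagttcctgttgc
Psmb6, chr10:55737638-55737887, plus strand: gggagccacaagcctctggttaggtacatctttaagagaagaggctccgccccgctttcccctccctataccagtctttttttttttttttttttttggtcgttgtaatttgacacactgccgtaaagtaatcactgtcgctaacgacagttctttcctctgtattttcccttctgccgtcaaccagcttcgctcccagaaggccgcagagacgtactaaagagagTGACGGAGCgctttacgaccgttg
Psma6, chr6:78514097-78514346, plus strand: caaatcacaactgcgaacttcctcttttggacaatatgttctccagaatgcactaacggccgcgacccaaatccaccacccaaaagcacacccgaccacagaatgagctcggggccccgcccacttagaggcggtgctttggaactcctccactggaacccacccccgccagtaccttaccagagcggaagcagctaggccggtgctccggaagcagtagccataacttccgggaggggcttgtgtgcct
Psme1, chr15:33038721-33038970, plus strand: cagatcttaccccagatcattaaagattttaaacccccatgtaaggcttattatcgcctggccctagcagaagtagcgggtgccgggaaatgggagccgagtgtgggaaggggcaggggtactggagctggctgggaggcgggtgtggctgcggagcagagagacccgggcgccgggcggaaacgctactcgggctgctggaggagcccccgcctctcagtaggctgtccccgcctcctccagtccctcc

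The match in Psmb5 lay 60 to 52 bases before the start (-60 to -52) and that in Psmb6 24 to 16 bases before it (-24 to -16). Of the 7 genes with the core, Psmb2 and Psme4 were called higher, Psmd3 was called lower and 4 were not called. These calls depended on the scaling. With library size only, Psmb2 and Psme4 were not called (adjusted p = 0.119 and 0.174 from edgeR). Psmd3, Psmd1 and Psmb5 were then called lower (adjusted p = 5.52e-04, 0.0113 and 0.0263). Whether the genes that hold the core share a direction was not tested.

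The ATPases of the 19S cap, Psmc1 to Psmc6, which thread substrates into the core, showed no called change. All 6 had overlapping groups, and their log2 fold changes lay between -0.06 and 0.03. Psmc2, with the highest fold change, was at 232, 235 and 244 CPM in Control and at 234, 244 and 248 CPM in STZ, with a log2 fold change of 0.03 (95% interval -0.05 to 0.11, adjusted p = 0.576). Psmc3, with the lowest, was at 318, 339 and 349 CPM in Control and at 321, 326 and 322 CPM in STZ, with a log2 fold change of -0.06 (95% interval -0.13 to 0.02, adjusted p = 0.236), but it was called lower with library size only (log2 fold change -0.09, adjusted p = 0.0455). The interval of each ATPase lay within the 1.2-fold limit, with outer bounds of -0.13 (Psmc5) and 0.11 (Psmc2).

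Among the 11 non-ATPase genes of the cap, 1 rose, 1 fell and 9 did not pass. Psmd8, a subunit of the lid that covers the base of the cap, was at 218, 211 and 216 CPM in Control and at 245, 240 and 253 CPM in STZ. Its groups did not overlap, and the log2 fold change was 0.19 (95% interval 0.12 to 0.27, adjusted p = 5.56e-05). Psmd3, also of the lid, was at 276, 271 and 281 CPM in Control and at 253, 252 and 256 CPM in STZ, likewise without overlap. It fell slightly, with a log2 fold change of -0.12 (95% interval -0.20 to -0.05, adjusted p = 0.00635).

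The receptor and the deubiquitinase of the cap were close to 0. Psmd4, which binds ubiquitin chains, was at 158, 154 and 159 CPM in Control and at 162, 153 and 157 CPM in STZ, a log2 fold change of 0.003 (95% interval -0.08 to 0.09, adjusted p = 0.957). Psmd14, which removes the chains before degradation, was at 145, 162 and 168 CPM in Control and at 163, 149 and 153 CPM in STZ, a log2 fold change of -0.03 (95% interval -0.13 to 0.06, adjusted p = 0.573). The groups overlapped in both. The scaffold genes Psmd1 and Psmd2 had log2 fold changes of -0.07 and -0.03, of which that of Psmd1 passed with upper-quartile scaling (adjusted p = 0.0311), with library size only (0.0113) and without Control replicate 1 (0.0339). The genes Psmd6, Psmd7, Psmd11, Psmd12 and Psmd13 had values between -0.05 and -0.004. Over the whole cap, 15 of 17 genes did not pass and the median log2 fold change was -0.03, while over the core 9 of 14 did not pass and the median was -0.004.

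Genes for the chaperones that build the complex moved in both directions. Psmg1 and Psmg2 encode a pair of proteins that starts the alpha ring, and Psmg3 and Psmg4 encode the second pair. Psmg1 was at 57.1, 50.1 and 53.7 CPM in Control and at 43.1, 43.2 and 44 CPM in STZ, without overlap. Its log2 fold change of -0.30 (95% interval -0.43 to -0.18, adjusted p = 4.49e-05) was past the threshold, whereas its partner Psmg2 had 0.17 (95% interval 0.01 to 0.32, adjusted p = 0.066). Psmg2 was at 24.5, 23.9 and 24.9 CPM in Control and at 26.5, 26.8 and 28.8 CPM in STZ, so all its STZ samples were above Control.

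Among the tested members, Psmg4 had the lowest fold change and the fewest reads, 195 to 223 in Control and 151 to 218 in STZ. It was at 18.4, 20.3 and 15.3 CPM in Control and at 14.9, 13.1 and 14.5 CPM in STZ. The groups did not overlap, but the nearest samples differed by less than the spread within Control (SD 2.52 CPM). Its log2 fold change was -0.33 (95% interval -0.53 to -0.12, adjusted p = 0.00676), and without Control replicate 2 the call was lost (log2 fold change -0.23, adjusted p = 0.0928). Psmg3 had a log2 fold change of -0.09 (adjusted p = 0.28). Psmd5, a chaperone of the 19S base, was at 113, 110 and 112 CPM in Control and at 124, 121 and 124 CPM in STZ, without overlap. It rose by a log2 fold change of 0.14 (95% interval 0.05 to 0.23, adjusted p = 0.00713). Its fellow chaperones Psmd9 and Psmd10, and the thymic subunit Psmb11, were not analysed here.

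Among the activators, all 4 Psme genes were called higher, of which Psme1 and Psme2 kept their calls under every alternative run and Psme3 and Psme4 did not, and the 5 genes of the class had a median log2 fold change of 0.17. Psme1, one subunit of the interferon-inducible activator PA28, was at 114, 117 and 110 CPM in Control and at 144, 137 and 136 CPM in STZ. The groups did not overlap, and the log2 fold change of 0.29 (95% interval 0.20 to 0.38, adjusted p = 5.22e-07) was the highest of the members, at the 83.5th percentile of all genes. Psme2, which encodes the other subunit of PA28 and lies beside Emc9 and Rnf31, was at 104, 98.3 and 100.3 CPM in Control and at 113, 114 and 115 CPM in STZ. Here the log2 fold change was 0.18 (95% interval 0.08 to 0.27, adjusted p = 0.00117), again without overlap.

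Psme3 and Psme4 encode nuclear activators, of which the second, PA200, has been linked to DNA repair and histone degradation. Psme3 was at 151, 152 and 156 CPM in Control and at 162, 166 and 164 CPM in STZ, with a log2 fold change of 0.10 (95% interval 0.01 to 0.18, adjusted p = 0.045). Psme4 was at 188, 186 and 188 CPM in Control and at 197, 196 and 209 CPM in STZ, with a log2 fold change of 0.10 (95% interval 0.02 to 0.18, adjusted p = 0.0387). The groups did not overlap in either gene, but both calls lay close to the threshold and were lost under DESeq2's Wald test (adjusted p = 0.0751 for Psme3 and 0.0625 for Psme4), with no filter on low counts (0.0822 and 0.0611), with upper-quartile scaling (0.106 and 0.0959), with library size only (0.191 and 0.174) and at the stricter threshold of 0.01. The call of Psme3 was also lost without any sample other than Control replicate 3 (Control replicates 1 and 2, adjusted p = 0.13 and 0.103, and STZ replicates 1, 2 and 3, adjusted p = 0.0614, 0.0952 and 0.0857). That of Psme4 was lost without Control replicate 1, 2 or 3 (adjusted p = 0.0644, 0.0988 and 0.0509) or STZ replicate 3 (adjusted p = 0.213). Psmf1, the gene of the regulator PI31, had a log2 fold change of 0.17 (adjusted p = 0.0624). Its 95% interval ran from 0.01 to 0.33, and it passed without STZ replicate 1 (adjusted p = 0.0238).

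Summed by class, the alpha ring had 1572, 1661 and 1603 CPM in Control and 1528, 1512 and 1565 CPM in STZ, and the beta ring 1557, 1583 and 1545 CPM in Control and 1636, 1616 and 1608 CPM in STZ. The STZ samples were thus all lower for the alpha ring and all higher for the beta ring. For the alpha ring the nearest samples were 1565 CPM in STZ and 1572 CPM in Control. Its only genes called lower were Psma6 and Psma7. With library size only the alpha ring stayed apart, but the beta ring overlapped (1555 to 1596 CPM in Control, 1587 to 1617 CPM in STZ) and the non-ATPases separated (2982 to 3080 CPM and 2862 to 2937 CPM, lower in STZ). The ATPases (1382 to 1478 CPM in Control, 1391 to 1448 CPM in STZ) and the non-ATPases (2933 to 3059 CPM and 2899 to 2977 CPM) overlapped. The activators and PI31 together had 580 to 582 CPM in Control and 641 to 655 CPM in STZ. These sums are given as a description, without a test.

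Of the rows that match by name only, Psmc3ip, which acts in meiotic and homologous recombination and is no subunit, was at 18.7, 20.8 and 22 CPM in Control and at 23.7, 27.1 and 24.9 CPM in STZ. It rose, with a log2 fold change of 0.29 (95% interval 0.12 to 0.46, adjusted p = 0.00353). Psme3ip1, which encodes a protein that binds the Psme3 product, had a log2 fold change of 0.005 (adjusted p = 0.952), and Psme1-ps1 had at most 7 reads and was not tested. Without the name-only rows, 9 of 41 genes were higher and 5 lower. In GRCr8 the spans of 15 members overlap another gene, among them Psme1 (Emc9), Psmd5 (Cutal), Psmb1 (Tbp) and Psmc3ip (Mlx). The library kit keeps strand, but how featureCounts was set for strand is not given in the sources used here, and counts of such overlapping genes are uncertain to that extent.

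The inducible subunits that replace the catalytic ones in the immunoproteasome were set beside them. Psmb9, which replaces Psmb6, was at 20.6, 19.6 and 16.6 CPM in Control and at 25.6, 27.4 and 25.2 CPM in STZ. It rose without overlap, with a log2 fold change of 0.46 (95% interval 0.29 to 0.63, adjusted p = 1.7e-05). Psmb10, which replaces Psmb7, rose by a log2 fold change of 0.34 (95% interval 0.18 to 0.50, adjusted p = 5.32e-04). Psmb8, which replaces Psmb5, had a log2 fold change of 0.16 (95% interval -0.06 to 0.37, adjusted p = 0.218). Whether the inducible and constitutive subunits differed in their change was not tested.

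**Figure D4:**
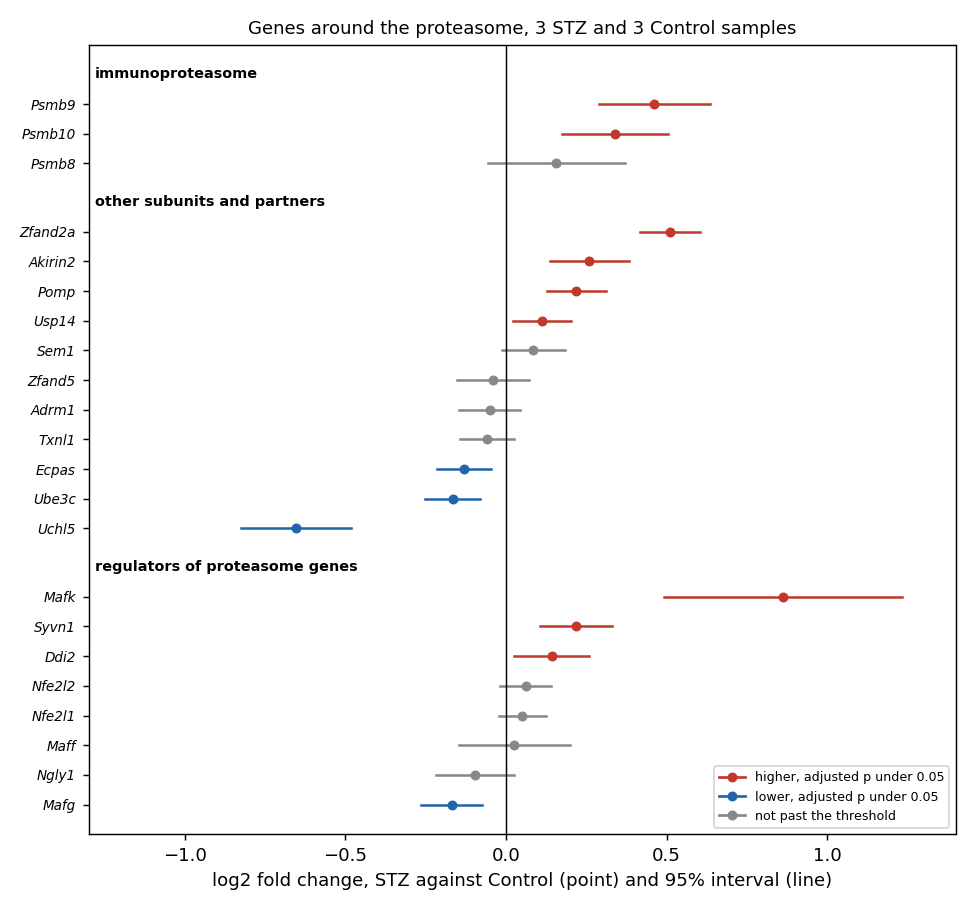
Log2 fold change (x axis, STZ against Control) with 95% intervals (lines) for the 3 inducible subunits, 11 partners of the complex and 8 regulators, which are not members, by list, colored by the call of edgeR's quasi-likelihood test. The values run from -0.65 (Uchl5) to 0.86 (Mafk), a wider range than that of the members.

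Genes that act around the proteasome spread more widely than the members. Even so, 23 of the 32 tested had an absolute log2 fold change under 0.2, against 52.2% of all genes. Of 32 tested genes in 3 lists of partners, regulators and ubiquitin genes, 13 were higher, 9 lower and 10 did not pass, and the median log2 fold change was 0.06. The shares over all genes were the 25.9% and 25.1% given above, and with upper-quartile scaling or library size only 9 partner genes were higher and 10 lower. Nfe2l1, the factor named above, was at 522, 505 and 543 CPM in Control and at 557, 539 and 532 CPM in STZ. Its groups overlapped, and the log2 fold change was 0.05 (95% interval -0.02 to 0.12, adjusted p = 0.248). Of the 8 regulators, 3 were higher and 1 lower, with the smallest p for Mafk, a small Maf protein that pairs with factors of this family. Mafk was at 3.21, 3.55 and 2.81 CPM in Control and at 6.03, 4.87 and 6.27 CPM in STZ, a rise of 0.86 in log2 fold change (95% interval 0.49 to 1.23, adjusted p = 1.25e-04) from only 34 to 39 reads per Control sample.

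Among 11 partners of the complex, 4 were higher and 3 lower. Pomp, the chaperone that completes the core, rose, with 124, 130 and 124 CPM in Control and 155, 138 and 147 CPM in STZ and a log2 fold change of 0.22 (95% interval 0.13 to 0.31, adjusted p = 8.73e-05). The cap genes that lack the Psm symbol were near 0, with log2 fold changes of -0.05 for Adrm1, a ubiquitin receptor (adjusted p = 0.389), and 0.09 for Sem1, a small lid subunit (adjusted p = 0.145). Zfand2a, a stress-inducible protein that binds the cap, had the smallest p of the list and a log2 fold change of 0.51 (adjusted p = 1.92e-12). Uchl5, the deubiquitinase held by Adrm1 and named after its values were seen, was at 26.8, 31 and 25.8 CPM in Control and at 17.3, 18.1 and 17.7 CPM in STZ. Its log2 fold change was -0.65 (95% interval -0.82 to -0.48, adjusted p = 1.56e-08).

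Of 13 ubiquitin, E1 and shuttle genes, 6 were higher and 5 lower. Among those called higher were the ubiquitin genes Ubb and Rps27a and the activating enzyme Uba1, with log2 fold changes of 0.16, 0.17 and 0.20. Uba6, also an activating enzyme, was called lower (-0.24), as were Rad23b, Ubqln4 and Vcp (-0.12, -0.20 and -0.09).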

How the data were processed

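RNA from 3 Control and 3 STZ samples was sequenced by the authors from TruSeq stranded mRNA libraries, in single-end mode. The authors mapped reads to Rnor6 with STAR 2.7.10a and deposited raw counts of uniquely mapped reads per gene from featureCounts. No column lacked a sample. From these counts, TMM scaling, filterByExpr and the quasi-likelihood test of edgeR 4.0.16 (R 4.3.3) were run over the whole table, with Benjamini-Hochberg adjustment over 11870 genes and thresholds of 0.05 and, following the study, 1 for the absolute log2 fold change. Each standard error was the absolute fold change on the log2 scale over the root of the F statistic, and 95% intervals from the t distribution. No pair of replicates within a group was a duplicate library (chi-square per degree of freedom of at least 1.9). The steps were tested on simulated data. Alternatives were other filters and scalings, DESeq2 1.42.0, limma-voom 3.58.1, a replicate block, a threshold of 0.01 and each sample left out.

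The members and lists were chosen with earlier results of these data known. Named in full are the highest and lowest gene of each class, the catalytic subunits, Psmd4, Psmd14, Psme1 to Psme4, the inducible subunits, Nfe2l1, Pomp, Adrm1, Sem1 and, for each partner list, its gene of smallest p (that of the ubiquitin list is not reported here), and each remaining member is given by its fold change or a range. Psma7, Psmg1 and Psmc3ip were given more fully because they were called. Promoters came from RefSeq (GRCr8), a build other than that of the counts.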

Additional observations from a re-analysis of the deposited data

How the results depend on the processing

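Of 15 called members, 10 were called under each of 15 alternatives (6 higher, 4 lower). Psmb2, Psmb7, Psme3, Psme4 and Psmg4 were lost under at least 1. Of 28 members not called, 22 were called under none, and 12 reversed sign under at least 1. The depth (151 to 11922 reads per tested member and sample) left Psma8 and Psme1-ps1 untested and limited Psmg4 most among those tested, with standard errors of up to 0.10. Where a count or direction changed, the cause was not tested. The number of higher members was 6 with upper-quartile scaling, with library size only and at an adjusted p under 0.01, and 9 members were lower with library size only. The median log2 fold change was -0.024 with upper quartile and -0.0384 with library size only, and -0.0256 to 0.0123 with 1 sample left out. These scalings moved the median of all genes by -0.019 and -0.0335. With no filter on low counts, 1 member passed both thresholds. It was none of the 43 members tested otherwise, so it was Psma8 or the pseudogene Psme1-ps1. Psma8 had 1 read in STZ replicate 3 and 0 in every other sample. Psme1-ps1 had 0, 1 and 0 reads in Control and 2, 4 and 7 in STZ, and is thus the likelier row.

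Reversed log2 fold changes were all near 0. For Psmc4 they were 0.0032 where each sample had to hold 10 counts or more, 4e-04 with limma-voom and 5e-04 with the replicate block. With upper quartile they were -0.0159 for Psmd4, -0.0083 for Psmb6 and -0.0141 for Psme3ip1. With library size only they were -0.0053 for Psmc2, -0.0305 for Psmd4, -0.0043 for Psma3, -0.0227 for Psmb6 and -0.0287 for Psme3ip1. With 1 sample left out, values ran from -0.0353 to 0.0221 for Psmc4, -0.0671 to 0.0293 for Psmc6, -0.017 to 0.0235 for Psmd4, -0.0127 to 0.0097 for Psmd12, -0.0444 to 0.0138 for Psmd11, -0.0445 to 0.0174 for Psmd13, -0.0954 to 0.0124 for Psmd14, -0.0353 to 9e-04 for Psma1, -0.0271 to 0.0355 for Psmb6, -0.0285 to 0.0571 for Psme3ip1 and -0.0836 to 0.0036 for Adrm1.

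The replicate block gave 11 higher and 5 lower members. Deviations of same-numbered samples were weakly related (correlations of 0.0301, -0.0243 and 0.126 over 9559 genes, 3 of 6 samples closest to their own number), and the numbers were not taken to pair the samples because the correlation did not exceed 0.1 for every number.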
